A study of Homo sapiens with 18 samples.

Results

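The E2F, pocket protein (RB), MYBL2 and FOXM1 regulators are transcription factors and co-repressors that control when cell cycle genes are transcribed. They were taken from the expression table by gene symbol: E2F1, E2F2, E2F3, E2F7, E2F8, RB1, RBL1, RBL2, MYBL2 and FOXM1, which are 10 of 26372 gene symbols in the table. The values came from RNA-seq of SH-SY5Y, a human neuroblastoma line that takes on a neuron-like form when treated with retinoic acid. All cells received a lentiviral ZNHIT3 construct derived from FUGW, so every group, the WT group included, carried added ZNHIT3, and no group without a construct was analysed here. ZNHIT3 is a zinc-finger protein that takes part in the assembly of small nucleolar ribonucleoproteins.

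The constructs were ZNHIT3-WT, ZNHIT3-C14R (a substitution) and a ZNHIT3 deletion, and each was sampled at day 0 and at day 18, giving 6 groups of 3 libraries. The deletion is labelled 251-254 in replicate 1, 251-255 in replicate 2 and 251-256 in replicate 3, and these libraries are treated as one group. Differentiation medium was serum-free and contained 10 µM all-trans retinoic acid, 2 mM of a cell-permeable cyclic AMP (db-cAMP), 50 ng/ml BDNF and 20 mM KCl, and it was added 48 hours after infection. Nothing in the labels says whether the libraries of a group came from separate cultures or infections, so the p-values below measure only the spread between these libraries.

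Day of sampling accounted for most of the variation, with 86.9% on the first principal component. ZNHIT3 itself lay between 292 and 542 FPKM at day 0, with the groups in the order WT, C14R and deletion from high to low. The same order held at day 18, between 294 and 1193 FPKM. All 8 neuronal markers examined were at 1 FPKM or more on both days, and their summed level was 848 to 891 FPKM at day 0 and 1801 to 2013 FPKM at day 18. Of the noradrenergic neuroblast markers, TH, which defines catecholamine synthesis, was at or near 0 at day 0 and reached at most 1.02 FPKM at day 18. The summed level of 8 mesenchymal markers was 656 to 781 FPKM at day 0 and 109 to 128 FPKM at day 18. The C14R day 18 replicate 1 library stood apart on the second component, which held 2.49% of the variance, with a score of 24.8 against -8.27 to 9.27 in the others. Depth is unknown from FPKM (fragment counts divided by transcript length and by library size). Steps in the low values put the day 0 libraries at 59.1 to 84.9% of the deepest library and the day 18 libraries at 82.0 to 100%.

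In a cycling cell, cyclin-dependent kinases phosphorylate the pocket proteins RB1, RBL1 (p107) and RBL2 (p130), which releases the activator E2Fs to drive genes of the G1/S transition. E2F7 and E2F8 are targets of the activators and repress the same promoters later in S phase. MYBL2 is itself an E2F target. Bound to the MuvB core it opens the G2/M programme, which FOXM1 then carries through mitosis, and in resting cells MuvB instead joins RBL2 in the repressive DREAM complex. When neuronal precursors leave the cell cycle, activator E2Fs, MYBL2 and FOXM1 typically become low and RBL2 typically gains weight among the pocket proteins.

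Promoter windows were available from RefSeq (GRCh38.p14; 250 bases before to 50 bases after an annotated start, 300 bases in all) for 8 of the 10 genes, that is all but E2F8 and FOXM1. They were searched on both strands for the E2F words TTCCCGC and its variants with other middle letters, TTCGCGC as well as TTGCCGC and likewise TTGGCGC, and separately for GGCGGGA, whose reverse complement shares letters with TTCCCGC, so that one stretch can match both. An E2F word was found for 5 of the 8 genes, against 15.3% of all 27305 genes with a window. GGCGGGA was found for 4 of the 8, namely E2F1, E2F3, RBL1 and MYBL2, against 18.0% of all genes. This word was added after the windows had been seen, so nothing is read from its count. The MYBL2 window held GGCGGGA and none of the E2F words. The segments below are shown because these are the 6 regulators whose windows held a word, with the matched letters in capitals on the strand of the gene. Matches outside the segments are not shown.
E2F1: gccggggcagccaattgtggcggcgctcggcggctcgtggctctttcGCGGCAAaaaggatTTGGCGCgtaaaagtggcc
E2F2: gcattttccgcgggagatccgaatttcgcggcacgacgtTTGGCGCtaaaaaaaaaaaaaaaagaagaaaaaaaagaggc
E2F3: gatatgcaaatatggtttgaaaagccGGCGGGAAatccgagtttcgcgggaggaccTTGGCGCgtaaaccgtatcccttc
E2F7: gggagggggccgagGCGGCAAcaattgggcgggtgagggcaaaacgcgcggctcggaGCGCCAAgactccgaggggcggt
RBL1: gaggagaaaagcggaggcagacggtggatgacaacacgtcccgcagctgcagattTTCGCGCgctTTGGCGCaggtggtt
MYBL2: cgcttGGCGGGAgatagaaaagtgcttcaa

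The E2F1 segment is chr20:33686386-33686465 (minus strand), the E2F2 segment chr1:23531234-23531313 (minus strand), the E2F3 segment chr6:20401799-20401878 (plus strand) and the RBL1 segment chr20:37095998-37096077 (minus strand), and each ends 1 base before the annotated start. The E2F7 segment, chr12:77065680-77065759 on the minus strand, lies farther upstream, from -190 onwards. The MYBL2 segment, chr20:43667070-43667099 on the plus strand, lies -44 to -15 from the RefSeq start and falls inside an annotated UTR (GENCODE 29). The last 19 bases of the E2F1 segment, its TTGGCGC included, also fall inside an annotated UTR in that annotation. E2F1, E2F2, E2F3 and RBL1 each carry TTGGCGC within 41 bases upstream of the start, and E2F7 carries it on the opposite strand. Neither RBL2 window held an E2F word or GGCGGGA. Their starts lie 494 and 1642 bases inside the gene (GENCODE 29), so the bases before the RBL2 gene start were not searched. The RB1 window in the table lies 172724 bases inside the gene and held none of the words. Both genes are among the 8 counted, so their lack of words says nothing of the bases before their gene starts. These matches describe letters in these windows and do not show that a factor bound there.

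Words common in G2/M promoters were also counted in the same windows: TTTGAA, the cell cycle homology region (CHR), and CCAAT, which was common in the G1/S list below as well. Windows of E2F3 and RBL2 held TTTGAA, 2 of 8 genes, against 18.2% of all genes. The RBL2 match lies 24 bases after a start that is itself 494 bases inside the gene. CCAAT was in the windows of 4 of 8 genes, against 39.7% of all genes, and MYBL2 had neither word. In the lists of textbook targets used further on, TTTGAA was in the windows of 0 of 20 G1/S genes and 13 of 19 G2/M genes, CCAAT in those of 16 of 20 and 18 of 19, and an E2F word in those of 16 of 20 and 5 of 19.

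Each gene's level is described first by day, because the difference between days was the largest one. The regulators were chosen by their place in this circuit and with measured values of the same libraries in view, namely their day differences and the C14R difference at day 18. Those values are given as measurements in the paragraphs that follow, and where the model fitted to all genes calls them, the count stands beside the share of all genes called and nothing is read from it. Bulk RNA cannot tell fewer cycling cells from less RNA per cell. The sums of the neuronal and mesenchymal markers given above also moved with day, as did MKI67, a marker of cycling cells, which averaged 49.8 FPKM at day 0 and 19.6 FPKM at day 18 in WT, and the part of these shifts in the day differences was not tested. Differences are in log2(FPKM + 1), which understates the change of genes near 1 FPKM.

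MYBL2, the B-MYB subunit that converts MuvB into an activator, was at 32.5, 32.7 and 30.8 FPKM in the WT libraries at day 0 and at 9.52, 10.00 and 9.27 FPKM at day 18. In C14R it was at 31.6, 30.6 and 31.4 FPKM at day 0 and at 11.9, 12.3 and 12.6 FPKM at day 18. In the deletion group it was at 30.4, 30.3 and 33.1 FPKM at day 0 and at 10.9, 11.3 and 11.9 FPKM at day 18. All 9 day 18 libraries lay below all 9 day 0 libraries, and within day 18 the WT libraries were the 3 lowest. The log2 difference between days was -1.64 (SE 0.05) in WT, -1.28 (SE 0.05) in C14R and -1.38 (SE 0.05) in the deletion group. MYBL2 was thus left at 30.0% of its day 0 level in WT, 39.3% in C14R and 36.3% in the deletion group.

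FOXM1, the forkhead activator of mitotic genes, was at 25.0, 26.5 and 26.0 FPKM in WT at day 0 and at 8.15, 6.95 and 6.45 FPKM at day 18. The C14R libraries were at 25.9, 25.8 and 24.7 FPKM and then at 9.51, 8.48 and 8.26 FPKM. The deletion libraries were at 23.6, 25.6 and 25.9 FPKM and then at 8.60, 7.41 and 8.28 FPKM. The days did not overlap in any line, and at day 18 the C14R libraries all lay above the WT libraries while the deletion libraries overlapped them. The log2 differences between days were -1.72 (SE 0.07) in WT, -1.44 (SE 0.07) in C14R and -1.52 (SE 0.07) in the deletion group. FOXM1 overlaps ITFG2 by 2111 bases and RHNO1 by 898 bases on the opposite strand (GENCODE 29), and whether counting used strand is not given in the sources used here, so part of its FPKM could belong to those genes.

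**Figure D1:**
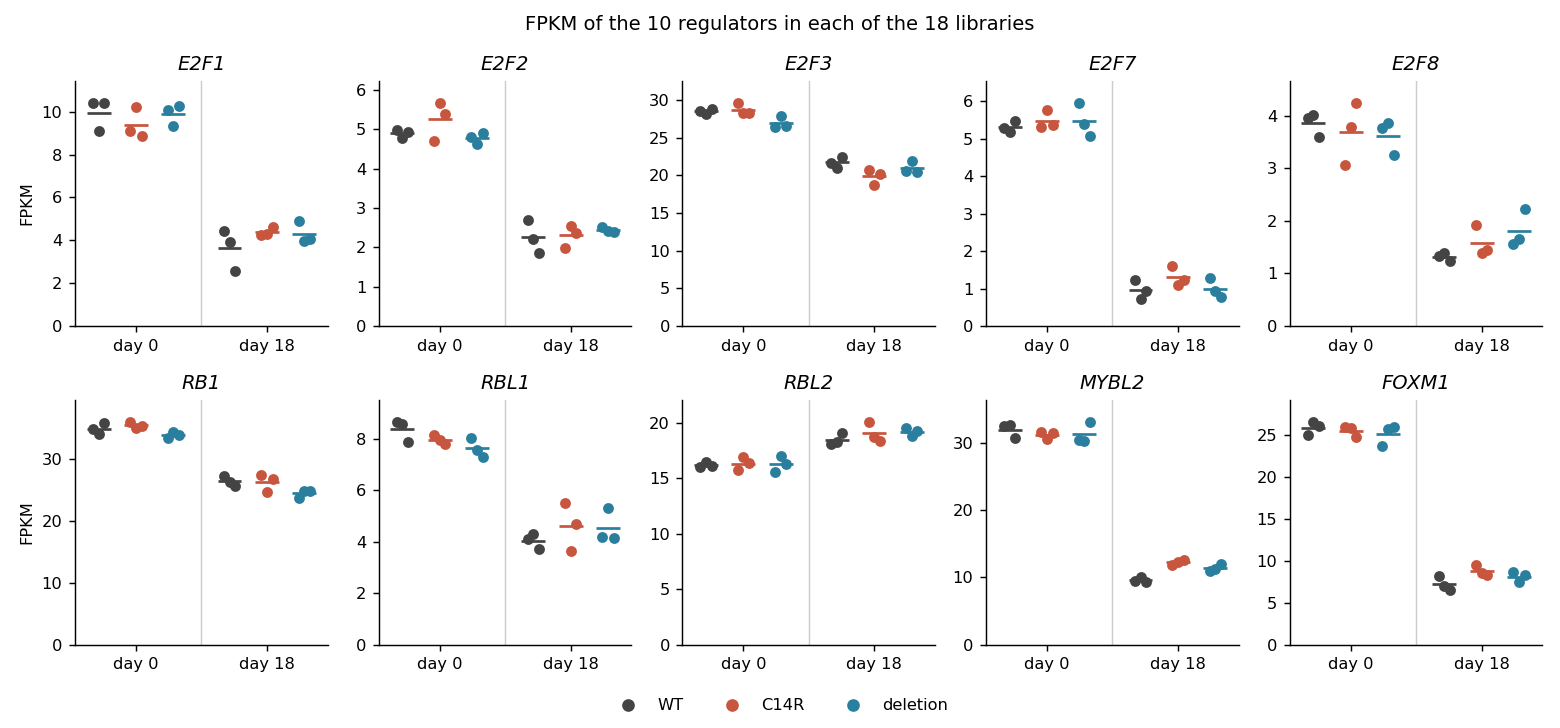
FPKM (vertical axes, from 0) of each of the 10 regulators, 1 panel per gene, in the 18 libraries, with day 0 left and day 18 right of the grey line; points are libraries, coloured by construct, and short lines are means of 3 libraries. The 5 E2F genes, RB1, RBL1, MYBL2 and FOXM1 sit lower at day 18 in every line, RBL2 sits higher, and the WT points of MYBL2 at day 18 lie below those of both variants.

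Among the activator E2Fs, E2F1, whose protein is the best known partner of RB1, was at 10.4, 9.09 and 10.4 FPKM in WT at day 0 and at 4.43, 3.94 and 2.58 FPKM at day 18. In C14R it was at 9.08, 10.2 and 8.86 FPKM and then at 4.26, 4.29 and 4.60 FPKM. In the deletion group it was at 10.1, 9.33 and 10.3 FPKM and then at 4.90, 3.96 and 4.07 FPKM. The days were separated in every line, and WT replicate 3 was the lowest of the 9 libraries at day 18. E2F1 was left at 36.6% of its day 0 mean in WT, 46.7% in C14R and 43.5% in the deletion group.

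E2F2, the second activator, was a lower transcript, at 4.62 to 5.66 FPKM over the 9 libraries of day 0 and at 1.85 to 2.69 FPKM over those of day 18. Its log2 difference between days was -0.87 in WT, -0.92 in C14R and -0.74 in the deletion group (SE 0.09 in each). E2F3 was the highest of the E2F members on both days and differed least between them. Its range was 26.4 to 29.6 FPKM at day 0 and 18.7 to 22.5 FPKM at day 18, which left 76.1% in WT, 69.1% in C14R and 78.0% in the deletion group. The share of E2F3 in the summed FPKM of E2F1, E2F2 and E2F3 was accordingly 65.8% ± 1.08 (SD, n = 3) in WT at day 0 and 78.7% ± 4.31 (SD, n = 3) at day 18. In C14R it was 66.3% ± 2.08 and 74.8% ± 1.83, and in the deletion group 64.7% ± 1.69 and 75.7% ± 2.03, with n = 3 each. The table has 1 row for E2F3 and cannot separate its E2F3A and E2F3B products.

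The atypical repressors E2F7 and E2F8, which bind DNA without a DP partner, had the lowest mean levels at day 18. E2F7 was at 5.27, 5.18 and 5.48 FPKM in WT at day 0 and at 1.23, 0.730 and 0.935 FPKM at day 18. In C14R it was at 5.31, 5.76 and 5.37 FPKM and then at 1.61, 1.08 and 1.23 FPKM, and in the deletion group at 5.94, 5.40 and 5.06 FPKM and then at 1.28, 0.928 and 0.786 FPKM. Relative to day 0 it had the lowest level of the 10 genes in each line, at 18.2% in WT, 23.8% in C14R and 18.3% in the deletion group. At about 1 FPKM the log2 scale compresses this: the WT difference was -1.69 (SE 0.11) with a pseudocount of 1 and -2.37 with a pseudocount of 0.1.

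E2F8 was at 3.96, 4.02 and 3.60 FPKM in WT at day 0 and at 1.33, 1.39 and 1.24 FPKM at day 18. The C14R libraries were at 3.07, 3.79 and 4.24 FPKM and then at 1.91, 1.38 and 1.44 FPKM. The deletion libraries were at 3.77, 3.86 and 3.25 FPKM and then at 1.56, 1.65 and 2.22 FPKM. The days were separated in each line, and at day 18 the deletion libraries all lay above the WT libraries. E2F8 was at 34.1% of its day 0 level in WT, 42.7% in C14R and 49.9% in the deletion group. E2F8 lies within an antisense transcript, AC009652.2, which was not analysed here.

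E2F7 stood at 0.535 ± 0.0316 (SD, n = 3) of the FPKM of E2F1 in WT at day 0 and at 0.275 ± 0.0886 (SD, n = 3) at day 18. In C14R this ratio was 0.585 and 0.299, and in the deletion group 0.553 and 0.230. The repressor was thus lower in proportion to the activator at day 18, with no overlap of the days in any line.

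The pocket proteins diverged. RBL2, which leads the repressive complex of resting cells, was at 16.0, 16.5 and 16.1 FPKM in WT at day 0 and at 18.1, 18.3 and 19.1 FPKM at day 18. In C14R it was at 15.7, 16.9 and 16.3 FPKM and then at 20.1, 18.7 and 18.4 FPKM. In the deletion group it was at 15.6, 17.0 and 16.3 FPKM and then at 19.5, 18.8 and 19.2 FPKM. It was the 1 regulator with higher levels at day 18, and all 9 libraries of day 18 lay above all 9 of day 0. The log2 difference was 0.18 (SE 0.05) in WT, 0.21 (SE 0.05) in C14R and 0.22 (SE 0.05) in the deletion group, and in WT 60.7% of the genes tested had a lower value than this, so its rank among all genes was not far from the middle.

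RB1, the retinoblastoma protein, was the highest of the 10 on both days, at 33.3 to 35.9 FPKM at day 0 and 23.6 to 27.3 FPKM at day 18. Its log2 difference between days was -0.39 in WT, -0.42 in C14R and -0.45 in the deletion group (SE 0.04 in each). RBL1, the pocket protein whose gene is itself E2F driven, was at 7.29 to 8.65 FPKM at day 0 and 3.64 to 5.48 FPKM at day 18. Its differences were -0.90 in WT, -0.69 in C14R and -0.65 in the deletion group (SE 0.10 in each). RB1 overlaps LPAR6 and RCBTB2 on the opposite strand, and RBL2 overlaps AKTIP by 610 bases, also on the opposite strand.

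As a share of the summed FPKM of the 3 pocket proteins, RBL2 made up 27.3% ± 0.578 (SD, n = 3) in WT at day 0 and 37.8% ± 1.45 (SD, n = 3) at day 18. In C14R it made up 27.3% ± 1.00 and 38.3% ± 1.48, and in the deletion group 28.2% ± 0.834 and 39.9% ± 1.38, with n = 3 each. RB1 remained the largest part, at 58.6% and 53.9% in WT, 59.3% and 52.5% in C14R, and 58.5% and 50.7% in the deletion group. RBL1 made up 14.1% and 8.25% in WT. The sum of the 3 was 59.3 ± 0.353 FPKM in WT at day 0 and 48.8 ± 0.481 FPKM at day 18 (SD, n = 3 each). The sum of the 5 E2F members was 52.6 ± 1.12 and 29.9 ± 1.25 FPKM (SD, n = 3 each). MYBL2 and RBL2 use the same MuvB core, and the ratio of their FPKM was 1.98 ± 0.0573 in WT at day 0 and 0.520 ± 0.0315 at day 18 (SD, n = 3 each). At day 18 it was 0.645 ± 0.0482 in C14R and 0.593 ± 0.0316 in the deletion group (SD, n = 3 each), a ratio that carries the same MYBL2 values.

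**Figure D2:**
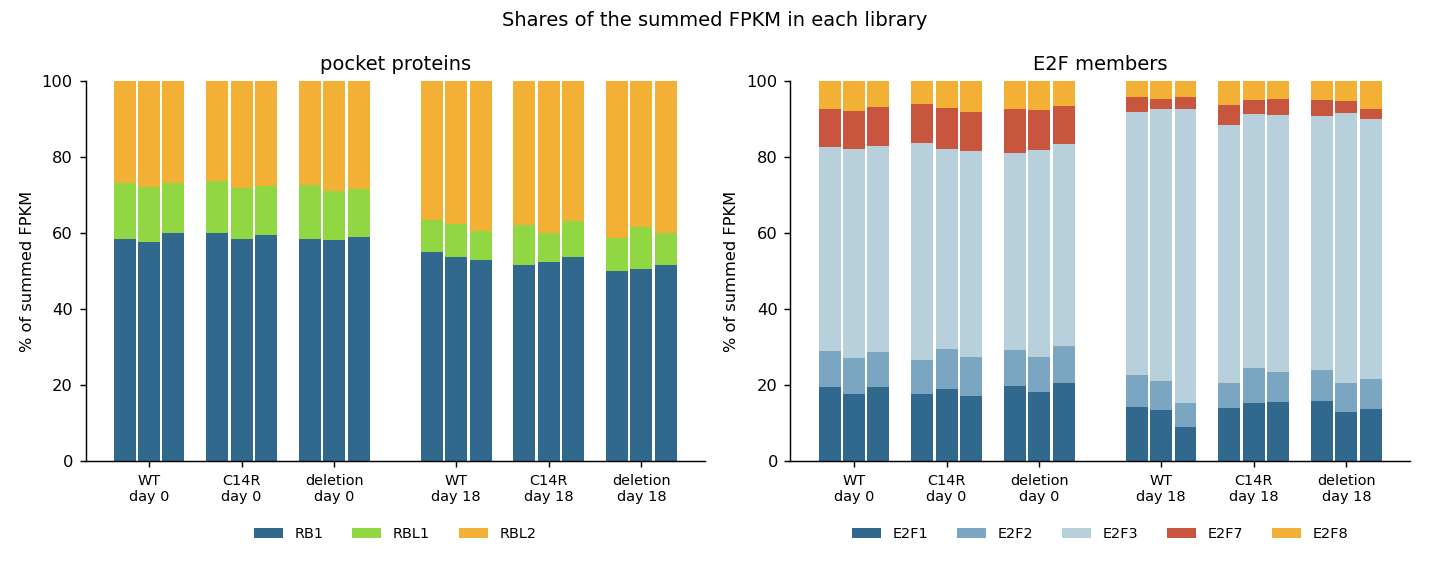
Stacked bars give each gene's percent of the summed FPKM (vertical axes, 0 to 100) of the pocket proteins (left) and of the 5 E2F members (right), 1 bar per library, 3 libraries per group. RBL2 takes 26.2 to 28.96% of the pocket protein sum in day 0 libraries and 36.6 to 41.2% in day 18 libraries, and E2F3 takes the largest part of the E2F sum in each library.

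Placed in order of FPKM, which is scaled to transcript length, the day 0 levels ran RB1, MYBL2, E2F3, FOXM1, RBL2, E2F1, RBL1, E2F7, E2F2 and E2F8 from high to low. Neighbours did not overlap at day 0 except E2F7 and E2F2 in C14R. At day 18 the order was RB1, E2F3, RBL2, MYBL2, FOXM1, RBL1, E2F1, E2F2, E2F8 and E2F7. RBL1 and E2F1 then overlapped in all 3 lines, E2F1 and E2F2 in WT, and E2F3 with RBL2 and E2F8 with E2F7 in C14R. MYBL2 and FOXM1 thus ranked below RBL2 at day 18 and above it at day 0.

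In a linear model fitted to all 13785 genes with a mean of at least 1 FPKM (limma, Benjamini-Hochberg adjusted p under 0.05), 9 of the 10 regulators were lower and 1 was higher at day 18 in each line. Over all genes 34.0% were called lower and 38.2% higher in WT, 35.0% and 37.9% in C14R, and 34.4% and 38.6% in the deletion group. The libraries of the days did not overlap in 36.0% (lower) and 39.7% (higher) of genes in WT, 34.5% and 37.3% in C14R, and 36.8% and 40.9% in the deletion group. The median difference of the 10 was -0.98 in WT, -0.89 in C14R and -0.73 in the deletion group, beside 0.03, 0.02 and 0.03 for all genes. The genes were chosen with these differences known, so the counts rest on values used in the choice and nothing is read from them. The scale of the deposited values bears on the small differences: with small RNA genes left out and the libraries rescaled, the median of all genes in WT was 0.21 and 68.7% of the genes called were higher, in place of 52.9%. The same share was 66.4% in place of 52.0% in C14R and 69.5% in place of 52.8% in the deletion group. In that setting RB1 differed by -0.19, E2F3 by -0.18 and RBL2 by 0.38 in WT, and no regulator changed direction in any line.

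**Figure D3:**
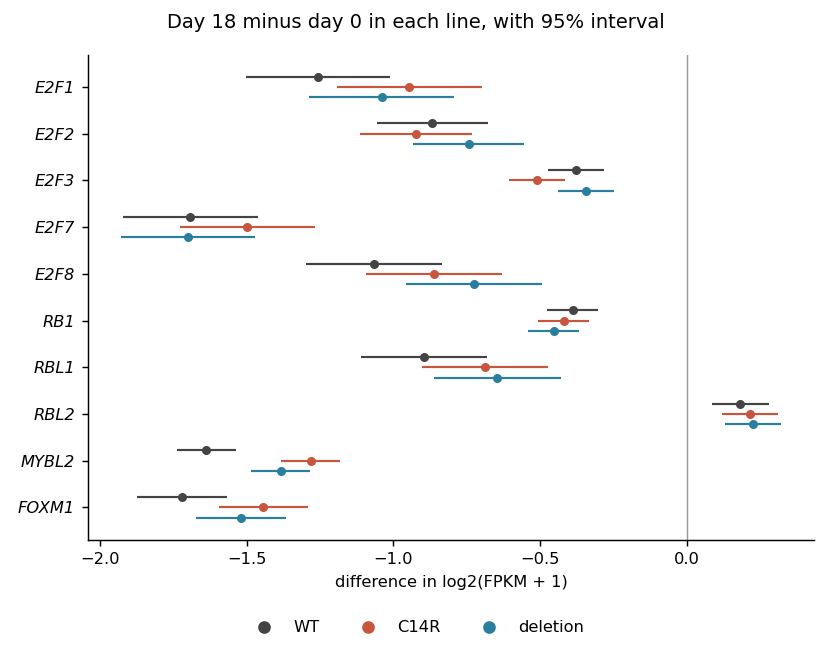
Difference in log2(FPKM + 1) between day 18 and day 0 (horizontal axis) for each regulator in WT, C14R and deletion lines; points are fitted differences from 3 against 3 libraries and bars are 95% intervals from the fit over all genes. FOXM1, E2F7 and MYBL2 lie farthest left, E2F3 and RB1 between -0.51 and -0.34, and RBL2 alone lies right of 0, at 0.18 to 0.22.

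The other subunits of the circuit were read from lists of textbook members and targets. These lists were also chosen with earlier results of these data known, so their counts are descriptions. For this list and those that follow, 34.0% of all genes tested were called lower and 38.2% higher in WT, with a median of 0.03. Of the other E2F and DP subunits, 4 of 5 tested fell at day 18 in WT, namely E2F4 (log2 difference -0.72, from 19.2 to 11.3 FPKM), E2F5 (-0.62), TFDP1 (-0.66) and TFDP2 (-0.43). E2F6, a repressor that works without pocket proteins, was at 16.4 and 15.2 FPKM and did not pass (-0.11, adjusted p = 0.130, limma), and TFDP3 was below the level needed for testing. The median was -0.62. E2F4, the usual E2F partner of RBL2 in resting cells, was therefore lower at day 18 while RBL2 was higher.

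In the list of MuvB subunits and other MYB genes, 2 of 7 rose and 5 fell in WT. LIN37, a MuvB subunit needed for repression by DREAM, rose from 4.93 to 10.2 FPKM (0.96), and LIN52, the subunit through which MuvB holds RBL2 or MYBL2, rose by 0.38. The haematopoietic family member MYB fell by 0.94 and LIN9, a further MuvB subunit, fell by 0.79. The list's median was -0.56.

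Among kinases, cyclins and inhibitors that act on the pocket proteins, 4 of 13 tested rose, 8 fell and 1 did not pass in WT, with a median of -0.77. The CDK4/6 inhibitor CDKN2D (p19) rose from 3.50 to 15.9 FPKM (1.91) and the CDK inhibitor CDKN1C (p57) rose from 5.33 to 8.61 FPKM (0.59). CDKN1A (p21), an inhibitor under p53 control, fell from 127 to 18.0 FPKM (-2.75), and cyclin D1 (CCND1) fell from 170 to 55.6 FPKM (-1.60). The other 2 that rose, named after their values were seen, were CDKN1B (p27, 0.57) and DYRK1A (0.17), the kinase that phosphorylates LIN52 to assemble DREAM. CCNE1, an E2F target that encodes cyclin E, was at 6.57 FPKM on both days in WT. CCND2, CDKN2A and CDKN2B were not tested for low values.

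Of 6 ubiquitin ligase parts, CDC20, SKP2, CCNF and CKS1B fell in WT, FZR1 rose (0.30) and FBXW7 did not pass (-0.02, adjusted p = 0.831, limma). CCNF and SKP2 target members of the E2F family for destruction. In C14R none of the 6 rose and 4 fell, where 37.9% of all genes were called higher and 35.0% lower.

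Target genes of the circuit were lower as well, where 34.0% of all genes were called lower and 38.2% higher in WT. Of 25 G1/S genes known as E2F targets, 24 fell in WT, 0 rose and CCNE1 did not pass (adjusted p = 0.996, limma), with a median of -1.38. TYMS, thymidylate synthase, fell from 38.3 to 6.37 FPKM (-2.41) and RRM2, the small subunit of ribonucleotide reductase, fell from 51.8 to 10.5 FPKM (-2.20). CCNE2, the second cyclin E gene, had the smallest fall (-0.64). Of 24 G2/M genes known as targets of MYBL2-MuvB and FOXM1, all 24 fell in WT, with a median of -1.45. CDC20, the mitotic activator of the anaphase-promoting complex, fell from 25.3 to 4.10 FPKM (-2.37), CCNB2 fell by 2.12, NEK2 fell by 1.05 and CDC25C fell by 0.97. The counts were also 24 of 25 and 24 of 24 in C14R and in the deletion group. The medians were -1.27 and -1.28 in C14R and -1.26 and -1.29 in the deletion group. Over all genes 35.0% were called lower in C14R and 34.4% in the deletion group, with medians of 0.02 and 0.03. CDC20 stands in both the G2/M and the ubiquitin ligase list, and CCNE1 and CCNE2 stand in both the G1/S and the kinase list.

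The second question of the design is how these regulators differ between the ZNHIT3 variants and WT. ZNHIT3 RNA also differed between them, with means of 538 FPKM in WT, 424 in C14R and 303 in the deletion group at day 0. At day 18 the means were 1153, 653 and 302 FPKM. Construct and ZNHIT3 level thus varied together, and the part of each in the differences below was not tested. At day 0 none of the 10 passed the test in either variant. C14R differed from WT by -0.08 to 0.08 (log2) over the 10 genes, with a median of -0.01. In that comparison 0% of genes were called by limma after adjustment, with 388 genes (2.81%) at an unadjusted p under 0.05, and 0 of the 10 separated the libraries, against 4.14% of all genes on the higher and 5.33% on the lower side. For MYBL2 the 95% interval of the C14R difference at day 0 was -0.13 to 0.07, and for RB1 it was -0.06 to 0.11.

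The deletion differed from WT at day 0 by -0.12 to 0.03, again with 0 of 10 past the threshold, against 0.0290% of all genes. E2F3 was the 1 regulator whose libraries did not overlap. It was at 28.6, 28.2 and 28.8 FPKM in WT and at 26.4, 27.9 and 26.5 FPKM in the deletion group, and it did not pass (-0.08, SE 0.04, adjusted p = 0.809, limma). Libraries did not overlap on the lower side in 9.28% of all genes and on the higher side in 8.68%. The G1/S target list had 18 of 25 genes below WT, with 6 not overlapping on the lower side and 1 on the higher. Its median was -0.03. The G2/M target list had 20 of 24 genes below WT, with 10 not overlapping on the lower side and 1 on the higher. Its median was -0.06, beside 0.00 for all genes, and no gene of either list passed the test. Of the G2/M genes, CENPA, the centromeric histone H3, was at 20.9 FPKM in WT and 17.9 FPKM in the deletion group (-0.21, adjusted p = 0.759, limma).

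At day 18 the MYBL2 libraries listed above did not overlap between C14R and WT. Their means were 12.3 ± 0.364 and 9.60 ± 0.368 FPKM (SD, n = 3 each), so C14R was at 128% of WT, a log2 difference of 0.32 (SE 0.05, 95% interval 0.22 to 0.42). MYBL2 was the 1 regulator of 10 past the adjusted threshold, where 0.0363% of all genes were. This value was known when the genes were chosen, and nothing is read from it. The count depended on single libraries: it was 0 without WT replicate 1, without WT replicate 3 or without C14R replicate 3 of day 18, and 0 when the fit held only the libraries compared. Without the C14R library that stood apart (replicate 1), the difference was 0.34.

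FOXM1 was next, at 8.75 ± 0.667 FPKM in C14R and 7.19 ± 0.874 FPKM in WT (SD, n = 3 each), 122% of WT. The difference did not pass (0.26, SE 0.07, adjusted p = 0.172, limma). Its libraries did not overlap, with the highest WT library at 8.15 FPKM and the lowest C14R library at 8.26 FPKM. E2F3 was lower in C14R, at 20.7, 18.7 and 20.1 FPKM against 21.7, 21.0 and 22.5 FPKM in WT, 91.4% of WT, also without overlap. This difference did not pass either (-0.12, SE 0.04, adjusted p = 0.301, limma). Among all genes, libraries did not overlap on the higher side in 5.44% and on the lower side in 5.64%. E2F1 (0.23), E2F7 (0.23), E2F8 (0.15) and RBL1 (0.14) were above WT in their means with overlapping libraries, and RB1 (-0.01), E2F2 (0.03) and RBL2 (0.04) lay near 0. Over the 10 genes, 8 differences were positive, with a median of 0.15, beside 0.00 for all genes. For E2F7, E2F8 and RBL1 the highest C14R library was replicate 1, and without it the differences were 0.14, 0.06 and 0.03. E2F7 was also at 0.14 without WT replicate 2, and RBL1 was at 0.27 without C14R replicate 2. The E2F1 difference was 0.06 without WT replicate 3, the lowest library, and 0.36 without WT replicate 1.

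In the deletion comparison, which uses the same WT libraries, MYBL2 was at 11.4 ± 0.513 FPKM, 118% of WT (SD, n = 3). The 3 deletion libraries lay above the 3 WT libraries, and the difference of 0.22 (SE 0.05, 95% interval 0.12 to 0.32) did not pass (adjusted p = 0.0979, limma). It did pass without the C14R replicate 1 library of day 18, which only enters through the shared spread (adjusted p = 0.0462, limma). It also passed with libraries weighted by quality (adjusted p = 0.0490, limma). More genes passed in general then, 0.370% of all genes in the first setting and 0.689% in the second. In the main fit none of the 10 regulators passed, against 0.0725% of all genes. E2F8 was at 137% of WT with no overlap (0.27, SE 0.11, adjusted p = 0.367, limma), and the difference was 0.17 without deletion replicate 3. RB1 was at 23.6, 24.7 and 24.8 FPKM against 27.2, 26.1 and 25.6 FPKM in WT, 92.6% of WT with no overlap (-0.11, SE 0.04, adjusted p = 0.345, limma). Libraries did not overlap on the higher side in 10.4% of all genes and on the lower side in 8.53%. FOXM1 was at 113% of WT with overlapping libraries (0.16, adjusted p = 0.429, limma), a difference of 0.09 without WT replicate 3 and 0.24 without WT replicate 1, and over the 10 genes 8 differences were positive with a median of 0.11, beside 0.00 for all genes.

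**Figure D4:**
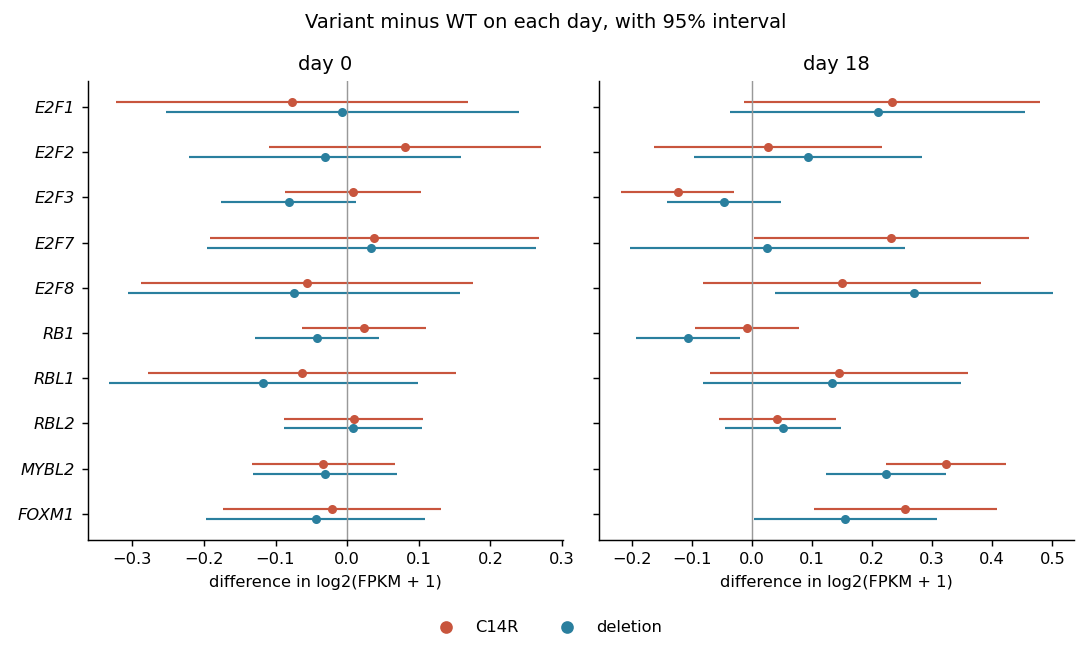
Difference from WT in log2(FPKM + 1) (horizontal axes, a different range in each panel) of each regulator in C14R and in the deletion group at day 0 (left) and day 18 (right); points are fitted differences from 3 against 3 libraries, bars are 95% intervals, and both variants share the same WT libraries. At day 0 each interval spans 0, and at day 18 MYBL2 lies at 0.32 in C14R and 0.22 in the deletion group.

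How the day difference itself varied with the construct is given by the interaction of variant and day. It is built from the day differences and the day 18 differences that were known when the genes were chosen, so the values below are a description. None of the 10 regulators passed in either variant. In the C14R interaction 0% of all genes passed by limma, with 790 genes (5.73%) at an unadjusted p under 0.05, and in the deletion interaction 0.0145% passed. MYBL2 had an interaction of 0.36 (SE 0.07, 95% interval 0.21 to 0.50) in C14R. In the deletion group it was 0.25 (SE 0.07, 95% interval 0.11 to 0.40). For FOXM1 the C14R interaction was 0.28 (SE 0.10), and for E2F8 the deletion interaction was 0.34 (SE 0.15). For RB1 the intervals were narrow, -0.15 to 0.09 in C14R and -0.19 to 0.06 in the deletion group, and for RBL2 they were -0.10 to 0.17 and -0.09 to 0.18.

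In C14R at day 0, 20 of 25 G1/S and 14 of 24 G2/M target genes lay above WT (medians 0.04 and 0.01). None of these target genes passed the test in C14R on that day, or at day 18 with all libraries in the fit. At day 18, 23 of the 25 G1/S genes lay above WT, with a median of 0.14, and 10 did not overlap on the higher side. Over all genes tested the median was -0.002, and 5.44% did not overlap on the higher side. MCM2, a helicase subunit, was at 7.81 against 6.14 FPKM (0.31, adjusted p = 0.134, limma) and TYMS at 8.08 against 6.37 FPKM (0.30, adjusted p = 0.182, limma). ORC1, of the origin recognition complex, lay below WT (-0.12), and CCNE2 differed by 0.00. Of the 24 G2/M genes, 23 lay above WT, with a median of 0.15, and 8 did not overlap on the higher side. CENPF, a kinetochore protein, was at 28.5 against 22.8 FPKM (0.30, adjusted p = 0.134, limma), CCNB2 was at 8.23 against 6.65 FPKM (0.27, adjusted p = 0.137, limma) and CDC20 was the 1 gene below WT (-0.12).

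These target values moved with single C14R libraries, a comparison added after the values had been seen. Without C14R replicate 1, the library that stood apart, 20 of 25 G1/S genes lay above WT with a median of 0.09, and 21 of 24 G2/M genes with a median of 0.10. Without it CENPF differed by 0.19, TYMS by 0.20 and CDC20 by -0.04, while MCM2 (0.37) and CCNB2 (0.26) stayed within 1.5 times the values above. Without C14R replicate 2 the medians were 0.19 and 0.22, and 5 target genes passed by limma, all above WT: MCM6, PCNA and RRM2 of the G1/S list and CENPF and MKI67 of the G2/M list. Over all genes 125 of 13771 (0.908%) passed in that setting. CCNE2 lay at -0.14 without replicate 1 and at 0.17 without replicate 2. ORC1 lay at -0.04 without WT replicate 2, CDC20 at -0.19 without WT replicate 2, -0.24 without C14R replicate 3, -0.07 without C14R replicate 2 and -0.06 without WT replicate 3.

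Against the same WT libraries, the deletion group had 20 of 25 G1/S genes above WT at day 18, with a median of 0.09 and 6 not overlapping on the higher side. Over all genes tested the median was 0.005, and 10.4% did not overlap on the higher side and 8.53% on the lower. CDT1, a licensing factor, was at 3.07 against 2.34 FPKM (0.28, adjusted p = 0.319, limma), and 0.19 without deletion replicate 1. Of the 24 G2/M genes 16 lay above WT, with a median of 0.06, 4 not overlapping on the higher side and 1 on the lower, and ECT2 was that 1 (-0.16, adjusted p = 0.424, limma). With a library left out the G1/S median was 0.06 to 0.10 and the G2/M median 0.03 (without WT replicate 1) to 0.10 (without WT replicate 2). In both variants the medians of the E2F and DP list lay below 0, at -0.04 in C14R and -0.03 in the deletion group, and those of the MuvB list were 0.05 and -0.03, the first 0.02 without C14R replicate 1 or without WT replicate 1. The kinase list had medians of 0.06 and 0.03, and the ubiquitin ligase list of -0.07 and 0.03.

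**Figure D5:**
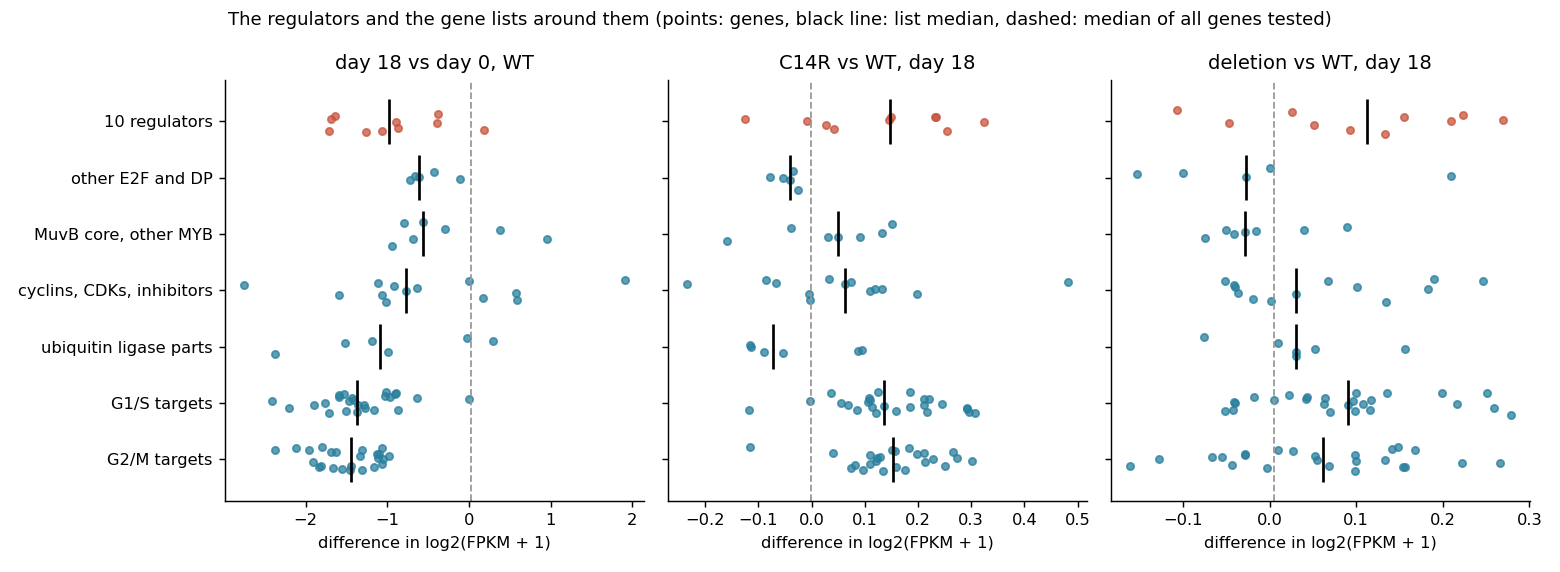
Difference in log2(FPKM + 1) (horizontal axes, a different range in each panel) of each tested gene of the regulators and of 6 gene lists, for day 18 minus day 0 in WT (left), C14R minus WT at day 18 (middle) and deletion minus WT at day 18 (right); points are genes, spread vertically at random, black lines are list medians and the dashed line is the median of all genes tested. The G1/S and G2/M lists have medians of -1.38 and -1.45 in the left panel and 0.14 and 0.15 in the middle panel.

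For each regulator the 3 genes whose profile over the 6 group means was closest were found among 13775 other tested genes, by the root mean square difference of centred log2(FPKM + 1). Nearest to MYBL2 were TACC3 (0.028), a spindle protein, NHSL2 (0.045) and MCM10 (0.048), a replication factor. Nearest to FOXM1 were KIF20A (0.021), a cytokinesis kinesin, LDHA (0.033) and EXO1 (0.033), and nearest to E2F1 were ADCYAP1R1 (0.020), a neuropeptide receptor, HIST1H1C (0.028) and SPC25 (0.042). RBL2 had its closest profiles in KSR1 (0.0067), FOXK2 (0.0089) and USP46 (0.013). RB1 was closest to PTAR1 (0.010), PDS5A (0.017) and DGKH (0.018). The difference between days dominates these 6 means.

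The remaining regulators had nearest genes of several kinds. E2F7 was closest to BUB1B (0.043), ANKRD18B (0.050) and EXO1 (0.055), and E2F8 to CDT1 (0.028), INCENP (0.032) and EME1 (0.037). RBL1 was closest to NEIL3 (0.026), MYO19 (0.026) and RFWD3 (0.030), E2F2 to DCPS (0.023), GTF2I (0.025) and TP53RK (0.029), and E2F3 to RAB20 (0.016), CPSF7 (0.017) and FOXO3B (0.021). Between the regulators themselves, E2F3 and RB1 were the closest pair, with a difference of 0.053. FOXM1 lay 0.058 from E2F7 and 0.067 from MYBL2, and E2F2 lay 0.069 from E2F8 and 0.074 from RBL1.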

How the data were processed

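One table of gene expression values for 18 libraries was used. The authors deposited FPKM per gene symbol, and hg38, TopHat2, STAR and Cufflinks 2.2.1 are named in the submitters' processing notes, without their roles. RNA was depleted of ribosomal RNA (Ribo-Zero) before NEBNext Ultra library preparation, per the labels' protocols. Strand use and annotation are not given in the sources used here.

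Groups came from sample titles. Values were taken as log2(FPKM + 1), without further scaling, for 13785 genes with a mean FPKM of at least 1, and all 10 regulators passed this filter. One limma 3.58.1 fit (R 4.3.3; trended empirical Bayes, 6 group means, 18 libraries) gave 9 comparisons, each adjusted by Benjamini-Hochberg over all genes at a threshold of 0.05. The script was tested on simulated data. All regulators were named, and list genes were named as those with the largest and smallest differences, at most 4 per list of over 6 genes. CDKN1B, DYRK1A, MCM6, PCNA, RRM2 and MKI67 were named after their values were seen, and CCND2, CDKN2A, CDKN2B and TFDP3 as genes not tested. CCNE1, named for the G1/S list, is also described with the kinase list. The regulators, gene lists and promoter words were chosen with earlier results of these data known, and GGCGGGA was added after the windows had been seen. Columns of values without a sample numbered 0. Replicate numbers were not used to pair libraries in the main fit. FPKM carry no counts, so no counting interval was possible.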

Additional observations from a re-analysis of the deposited data

How the results depend on the processing

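Values were recomputed with array weights, with a replicate block, with only the libraries compared, with quantile normalization, with median-of-ratios factors, with small RNA genes removed and rescaling, with no filter or one at 5 FPKM, with a pseudocount of 0.1, and without each of 18 libraries in turn. For each regulator and comparison, no log2 difference that was called changed sign. In the day comparisons 10 regulators passed in each line, 10 to 10 with a library left out, and 7 with a mean of at least 5 FPKM, where E2F2, E2F7 and E2F8 were not tested. In C14R against WT at day 18, 1 regulator passed (MYBL2), 0 with only the libraries compared, and 0 to 1 with a library left out. In the deletion comparison at day 18, 0 passed, 1 with array weights (MYBL2), and 0 to 1 with a library left out. Of all genes, 0.0725% passed in the main fit of that comparison and 0.689% with array weights. Same-numbered libraries did not deviate together (21 pairs, correlation -0.363 to 0.168, 4 over 0.1, and 8 best with their own number). The replicate block left the counts of regulators as they were: 10 in each day comparison, 1 in C14R at day 18 (MYBL2, adjusted p = 0.0272) and 0 in the others. The medians and counts of the gene lists were recomputed without each library in turn, a setting added after the data had been seen. The cause of these changes was not tested. Low levels limit E2F7 and E2F8 at day 18, where 1 FPKM is near the pseudocount.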
